A study of Mus musculus with 6 samples.

Results

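CC chemokines are small secreted proteins named for a pair of adjacent cysteines near their N terminus. They bind glycosaminoglycans on the cell surface and matrix, form gradients, and attract leukocytes through G protein-coupled receptors of the CCR family. In the arterial wall they are best known for recruiting monocytes, T cells and other leukocytes, with CCL2 and its receptor CCR2 as the classical monocyte axis. Their transcription is known to respond to NF-kB, AP-1 and interferon-activated factors, and many of their mRNAs are short-lived.

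The genes described here were the 10 CC chemokines listed by symbol as Ccl2, Ccl5, Ccl7, Ccl8, Ccl9, Ccl11, Ccl17, Ccl20, Ccl25 and Ccl27a, out of 54532 genes in the deposited table. The list was made by name, and 12 rows carried these symbols because Ccl27a had 3. RNA sequencing had been performed on mouse aortic smooth muscle cells (MASMCs), which were labelled wild type in the Ad-Con group and PDK4-overexpressing in the Ad-PDK4 group. Both groups carried an adenoviral vector, with a control plasmid in Ad-Con and a plasmid for overexpression of PDK4 (pyruvate dehydrogenase kinase 4, a mitochondrial kinase that restrains entry of pyruvate into the citric acid cycle) in Ad-PDK4. Each group had 3 libraries. Per the study, the cells came from mouse abdominal aorta and both groups received angiotensin II, a vasoactive peptide hormone with which the study induces aneurysm. GEO's labels are silent on that treatment, and cells without a vector or without angiotensin II were not analysed here. The study calls the 3 libraries of a group biological replicates. Neither it nor the labels say whether these were separate animals or separate cultures, and the p-values measure the spread between these libraries.

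Values were FPKM, that is, fragments counted on a gene scaled by gene length and library size, from which the read counts behind them were recovered. Libraries held between 17588942 and 21861872 reads, so that 1 read on a gene of 1 kb was worth 0.0453 to 0.0571 FPKM. Pdk4 itself (ENSMUSG00000019577) checks the labels, and it went against them: it stood at 10.0 ± 0.469 FPKM under the Ad-Con label and 7.48 ± 0.162 under the Ad-PDK4 label (mean ± SD, n = 3), a log2 fold change estimated at -0.42 (limma adjusted p = 0.00114). Whether the counts include transcripts from the plasmid is not given in the sources used here, and higher and lower below mean Ad-PDK4 compared with Ad-Con by label alone. Acta2, smooth muscle actin, was abundant in both groups (78.0 and 36.2 FPKM), while the contractile markers Myh11, Tagln, Cnn1, Des and Mylk averaged below the limit for testing. The test was limma's on log2(FPKM + 0.1), for the 13423 genes averaging 0.5 FPKM or more, and calls were made where the p adjusted over all of them fell below 0.05. Because of the pseudocount, log2 fold changes of weakly expressed genes are too small.

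The feature that defines the family can be read in the coding sequences of all 10 genes. Each line below gives 45 coding bases of 1 GENCODE transcript, 5′ to 3′, with the codons of the adjacent cysteine pair in capitals.
Ccl2: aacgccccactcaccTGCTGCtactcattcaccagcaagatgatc
Ccl7: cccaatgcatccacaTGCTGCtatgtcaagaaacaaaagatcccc
Ccl8: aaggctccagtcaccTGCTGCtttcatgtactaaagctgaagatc
Ccl11: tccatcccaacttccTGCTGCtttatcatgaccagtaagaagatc
Ccl5: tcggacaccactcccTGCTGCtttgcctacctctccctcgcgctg
Ccl9: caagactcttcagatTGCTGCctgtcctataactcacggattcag
Ccl17: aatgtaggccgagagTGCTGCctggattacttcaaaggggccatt
Ccl20: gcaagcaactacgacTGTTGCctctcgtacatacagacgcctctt
Ccl25: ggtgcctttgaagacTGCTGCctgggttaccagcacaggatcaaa
Ccl27a: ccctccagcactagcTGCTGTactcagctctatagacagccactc

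On GRCm38 the windows of the monocyte chemoattractant and eotaxin group lie on the plus strand at chr11:82036491-82036535 for Ccl2, chr11:82046523-82046567 for Ccl7, chr11:82116041-82116085 for Ccl8 and chr11:82061681-82061725 for Ccl11. Those of Ccl5 (chr11:83529218-83529262) and Ccl9 (chr11:83575902-83575946) lie on the minus strand of the same chromosome. The window of Ccl17 is on the plus strand at chr8:94811197-94811241 and that of Ccl27a on the minus strand at chr4:41769921-41769965. The windows of Ccl20 (chr1:83116902-83117842) and Ccl25 (chr8:4349894-4353926), both on the plus strand, are joined across an intron. Ccl20 and Ccl27a each spelled 1 cysteine of the pair with TGT, where the other 8 genes had TGC at both positions.

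Across whole coding sequences, the 6 pairs among Ccl2, Ccl7, Ccl8 and Ccl11 were identical at 63.6% to 67.0% of the bases of the shorter sequence. The other 39 pairs ranged from 41.9% to 60.5%, with a median of 54.0%. The coding sequence of Ccl2 has 148 codons, against 97 in each of Ccl7, Ccl8 and Ccl11, so Ccl2 carries a longer tail than its neighbours. The longest transcripts of Ccl2, Ccl5, Ccl7, Ccl8, Ccl11, Ccl17, Ccl20 and Ccl25 shared 0% of their 50-base words with another annotated gene, and that of Ccl9 shared 2.0%. For Ccl27a the share was 69.2%, with 5 other genes (Gm13306, Gm13307, Gm20878, Gm21586 and Gm21953), so its reads could have been split and its level is uncertain.

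Ccl2, Ccl7 and Ccl8 were present in Ad-Con and rose 7.54- to 21.3-fold in mean FPKM, Ccl5 rose 786-fold from near the limit of detection, Ccl9 and Ccl20 rose at levels below 1 FPKM (Ccl20 only in a fit without the filter on low values), and Ccl25 and Ccl27a differed by less than 2-fold. Ccl11 and Ccl17 were within a few reads of 0. Of the 10 genes, 7 passed the filter on low values, namely all but Ccl11, Ccl17 and Ccl20, and 1 of the 7 (Ccl9) passed it only because of its level in Ad-PDK4. Of the 7, 5 were called higher, where 21.8% of all tested genes were. The same 5 were higher by at least 2-fold, Ccl9 only just (log2 fold change 1.004), where 3.95% of all tested genes were. One, Ccl27a, was called lower (20.8% of all tested genes), and 0 of 7 were lower by at least 2-fold (2.68% of all tested genes). The groups did not overlap for 7 of the 7, nor for 54.3% of all tested genes. The median log2 fold change was 2.88 over the 7 genes and -0.003 over all tested genes.

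**Figure D1:**
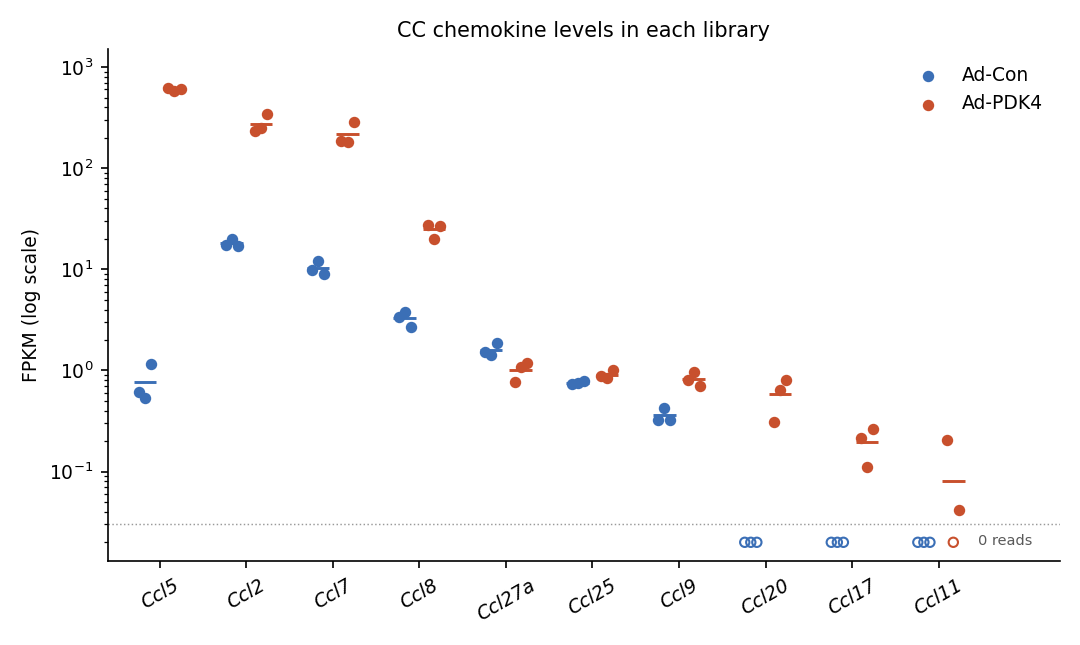
FPKM of the 10 CC chemokines (log axis) in the 3 Ad-Con and 3 Ad-PDK4 libraries. Each point is 1 library and each bar a group mean, and open circles below the dotted line are libraries with 0 reads, drawn at an arbitrary height. Ccl5 moves from below Ccl2, Ccl7 and Ccl8 in Ad-Con to above them in Ad-PDK4.

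Ccl2 (ENSMUSG00000035385, also known as MCP-1) encodes the main attractant of CCR2-bearing monocytes. Its level was 17.6, 19.9 and 17.0 FPKM in Ad-Con replicates 1 to 3 and 232, 247 and 345 FPKM in Ad-PDK4 replicates 1 to 3, on 407, 397 and 350 reads against 4802, 4925 and 8666. The groups lay far apart, and Ad-PDK4 replicate 3 stood above the other two. Mean FPKM went from 18.1 ± 1.53 to 275 ± 61.2 (SD, n = 3), a 15.1-fold ratio, with a log2 fold change estimated at 3.89 (SE 0.15, limma adjusted p = 7.03e-06). Among all 54532 genes ordered by FPKM within a library, Ccl2 went from places 2807 to 3288 in Ad-Con to places 88 to 157 in Ad-PDK4. A gene annotated on the opposite strand over the whole of Ccl2, Gm17268, had 0 reads in every library.

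Ccl7 (ENSMUSG00000035373, MCP-3), which starts 10.1 kb downstream of the start of Ccl2, encodes a further ligand of CCR2 that also acts on CCR1 and CCR3. It stood at 9.75, 12.1 and 9.02 FPKM in Ad-Con and 185, 184 and 289 FPKM in Ad-PDK4, on 159, 170 and 131 reads against 2693, 2573 and 5115. As with Ccl2, Ad-PDK4 replicate 3 was the highest library and the groups lay far apart. The mean rose from 10.3 ± 1.60 to 219 ± 60.6 FPKM (n = 3), a 21.3-fold ratio and a log2 fold change estimated at 4.38 (SE 0.21, limma adjusted p = 3.59e-05).

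Ccl8 (ENSMUSG00000009185), 79.6 kb from the start of Ccl2, is the remaining expressed gene of this cluster and in the mouse is known as a ligand of CCR8. It had 35, 34 and 25 reads in Ad-Con and 255, 177 and 306 in Ad-PDK4, or 3.37, 3.79 and 2.70 FPKM against 27.4, 19.8 and 27.1. Replicates 1 and 3 of Ad-PDK4 were alike and replicate 2 was lower, an order that differs from that of Ccl2 and Ccl7. The mean went from 3.28 ± 0.55 to 24.8 ± 4.32 FPKM (n = 3), a 7.54-fold ratio with a log2 fold change estimated at 2.88 (SE 0.16, limma adjusted p = 2.16e-05).

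Ratios within a library were compared to ask whether these neighbours differed by unequal amounts. The log2 ratio of Ccl7 to Ccl2 went from -0.82 ± 0.10 to -0.34 ± 0.09 (SD, n = 3), a difference of 0.48. That of Ccl8 to Ccl2 went from -2.44 ± 0.15 to -3.46 ± 0.33, a difference of -1.02. Neither ratio overlapped between the groups, and an exact two-sided permutation test over libraries gave p = 0.1 for each (Benjamini-Hochberg adjusted p = 0.1 over 3 ratios), the smallest value that 3 against 3 libraries allow. The remaining ratio, of Ccl11 to Ccl2, rests on the pseudocount, since Ccl11 had almost no reads.

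Ccl11 (ENSMUSG00000020676), the eotaxin gene, encodes an attractant of eosinophils through CCR3 and lies between Ccl7 and Ccl8. It had 0 reads in all 3 Ad-Con libraries and 4, 0 and 1 in Ad-PDK4. The groups overlapped at 0, and no fold change is given. A count of 0 allows up to 3 reads, which for this gene is 0.126 to 0.158 FPKM depending on the library, and such limits cover counting error only. The gene that shares most coding bases with Ccl7 (67.0%) was therefore not detectable in Ad-Con at this depth, in libraries where Ccl7 itself was plainly expressed.

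Ccl5 (ENSMUSG00000035042, RANTES) encodes an attractant of T cells and monocytes. Its reads were 12, 9 and 20 in Ad-Con and 10931, 9687 and 12772 in Ad-PDK4, which is 0.614, 0.534 and 1.15 FPKM against 626, 577 and 602. Ad-Con replicate 3 was the highest of its group, while the 3 Ad-PDK4 libraries lay close together. Mean FPKM went from 0.766 ± 0.334 to 602 ± 24.6 (n = 3), and the log2 fold change, 9.51 (SE 0.26, limma adjusted p = 4.70e-06), was the largest rise of all tested genes, at place 1. Its size depends on the few Ad-Con reads, and over the 15 alternative settings run the log2 fold change ran from 8.43 to 9.80. In the order of all genes by FPKM, Ccl5 went from places 11679 to 13276 in Ad-Con to places 42 to 43 in Ad-PDK4.

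Ccl9 (ENSMUSG00000019122), a mouse chemokine that acts through CCR1, is the gene next to Ccl5 among the 10 and is transcribed from the same strand. It had 20, 23 and 18 reads in Ad-Con and 45, 51 and 47 in Ad-PDK4, or 0.323, 0.430 and 0.326 FPKM against 0.812, 0.957 and 0.699. The groups did not overlap, but all 6 libraries stayed below 1 FPKM. The mean went from 0.360 ± 0.0611 to 0.823 ± 0.129 FPKM (n = 3), a 2.29-fold ratio and a log2 fold change estimated at 1.0 (SE 0.27, limma adjusted p = 0.0183). Without Ad-PDK4 replicate 1 or replicate 2 the call was lost, at log2 fold changes of 1.01 (limma adjusted p = 0.061) and 0.90 (limma adjusted p = 0.077). With a pseudocount of 1 the log2 fold change was 0.42. It also fell below 2-fold under quantile normalization (0.96) and without Ad-Con replicate 1 (0.95), Ad-Con replicate 3 (0.95) or Ad-PDK4 replicate 2 (0.90).

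Ccl20 (ENSMUSG00000026166, chr1:83116766-83119167), the only ligand of CCR6 among the chemokines, attracts Th17 cells and immature dendritic cells. It had 0 reads in all 3 Ad-Con libraries and 8, 16 and 25 in Ad-PDK4. Every Ad-PDK4 library was above the Ad-Con libraries, with 0.309, 0.643 and 0.796 FPKM (0.583 ± 0.249, n = 3). Its Ad-PDK4 mean was 5.14 times the level of 3 reads in each Ad-Con library, without allowance for counting error in Ad-PDK4. Its mean over the 6 libraries missed the filter, and in the fit without a filter it passed the threshold (limma adjusted p = 0.0026).

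Ccl17 (ENSMUSG00000031780, chr8:94810453-94812036), known as TARC and a ligand of CCR4, had 0 reads in each Ad-Con library and 2, 1 and 3 in Ad-PDK4. No library rose above 3 reads, so no fold change is given, although the fit without a filter called it (limma adjusted p = 0.0146). For this short gene the limit of 3 reads corresponds to 0.264 to 0.334 FPKM.

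Ccl25 (ENSMUSG00000023235, chr8:4325210-4360020), known as the thymus and gut chemokine that acts on CCR9, had 111, 99 and 106 reads in Ad-Con and 120, 109 and 166 in Ad-PDK4. In FPKM this was 0.758 ± 0.0264 against 0.911 ± 0.0891 (n = 3). The groups did not overlap, but the difference was small and not past the threshold, with a log2 fold change estimated at 0.23 (SE 0.18, limma adjusted p = 0.34). Ccl25 overlaps Elavl1 on the opposite strand over 204 bases, and whether counting used strand is not given in the sources used here. Elavl1, which encodes an RNA-stabilising protein, was itself called higher by 0.31 on the log2 scale (limma adjusted p = 0.0202).

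Ccl27a (ENSMUSG00000073888, chr4:41769467-41774247), whose product attracts skin-homing T cells through CCR10, was the member called lower. Its reads were 73, 59 and 80 in Ad-Con and 33, 45 and 62 in Ad-PDK4. Mean FPKM was 1.59 ± 0.233 against 1.01 ± 0.218 (n = 3), without overlap, and the log2 fold change was -0.62 (SE 0.19, limma adjusted p = 0.0343). The call held in 9 of 14 alternative settings and was lost without a filter and without any of Ad-Con replicate 1 (-0.65), Ad-Con replicate 3 (-0.51), Ad-PDK4 replicate 1 (-0.45) or Ad-PDK4 replicate 2 (-0.68), at limma adjusted p from 0.053 to 0.117. The other 2 rows with this symbol, on unplaced scaffolds, had 1 read in 1 Ad-Con library and 0 reads elsewhere.

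**Figure D2:**
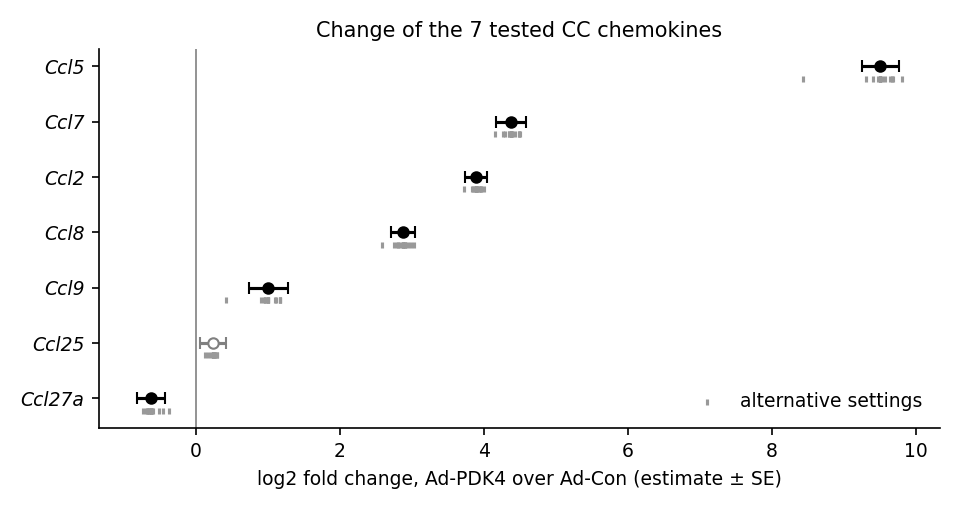
Log2 fold change, Ad-PDK4 over Ad-Con, of the 7 tested CC chemokines, with SE as the error bar (n = 3 per group). Filled points passed an adjusted p of 0.05 and the open point (Ccl25) did not, and grey ticks are the alternative settings. Ccl5, Ccl7, Ccl2 and Ccl8 stand at 9.51, 4.38, 3.89 and 2.88.

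Taken as levels per gene length, the order of the genes differed between the groups. In Ad-Con it ran Ccl2, Ccl7, Ccl8, Ccl27a, Ccl5, Ccl25 and Ccl9, with Ccl5 and Ccl25 overlapping and Ccl11, Ccl17 and Ccl20 at 0. In Ad-PDK4 it ran Ccl5, Ccl2, Ccl7, Ccl8, Ccl27a, Ccl25, Ccl9, Ccl20, Ccl17 and Ccl11. There the libraries of Ccl2 and Ccl7 overlapped, as did each neighbouring pair from Ccl27a to Ccl20 and the pair of Ccl17 and Ccl11.

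Summed over the family, the 10 genes took 32.8 to 38.9 FPKM per library in Ad-Con and 1031 to 1267 in Ad-PDK4, a 31.9-fold ratio of the means (35.2 ± 3.23 against 1124 ± 126, n = 3). Their part of all FPKM in a library went from 0.0112% to 0.369%. The make-up of this sum differed as well. Ccl2 made up 51.5 ± 0.375% of it in Ad-Con and 24.3 ± 2.81% in Ad-PDK4, while Ccl5 went from 2.23 ± 1.13% to 53.9 ± 5.67%. Ccl7 went from 29.1% to 19.3% and Ccl8 from 9.30% to 2.21%, although the levels of both had risen. These are bulk libraries, so more expressing cells and more RNA per cell cannot be told apart.

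**Figure D3:**
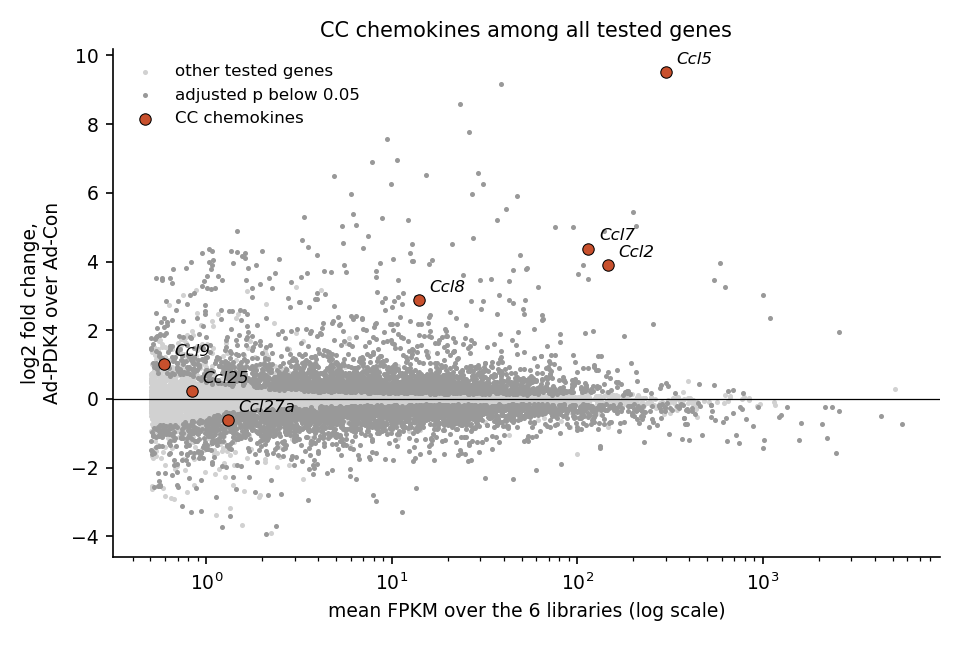
Log2 fold change, Ad-PDK4 over Ad-Con, against mean FPKM (log axis) for the 13423 tested genes, with called genes in darker grey and the 7 tested CC chemokines as labelled points. Ccl5 has the largest rise of all tested genes, while Ccl25 and Ccl27a lie among the bulk of genes of similar level.

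Of the 10 genes, 6 lie on chromosome 11 and 4 elsewhere. Ccl2, Ccl7, Ccl11 and Ccl8 span 81.2 kb (chr11:82035571-82116799), and Ccl5 and Ccl9 span 52.9 kb (chr11:83525778-83578636), with Ccl5 1490 kb from Ccl2. Level did not follow position in the first cluster, since Ccl11 and the non-member Ccl12 lie between Ccl7 and Ccl8 and had at most 4 reads and 0 reads in any library. Within 500 kb of that cluster 10 other genes were annotated and 0 of them passed the filter. Within 500 kb of Ccl5 and Ccl9 there were 50 other genes, of which 16 were tested, 7 higher, 2 lower and 7 neither (21.8% higher and 20.8% lower among all tested genes), with a median log2 fold change of 0.20. Slfn2, Slfn10-ps and Gm27598 were the 3 called higher by at least 2-fold, where 3.95% of all tested genes were. Gm20234 had a log2 fold change of 1.15 but was not called. Taf15 (-0.07) and Ap2b1 (0.08) lay close to 0. The 500 kb windows were chosen after the values had been seen.

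**Figure D4:**
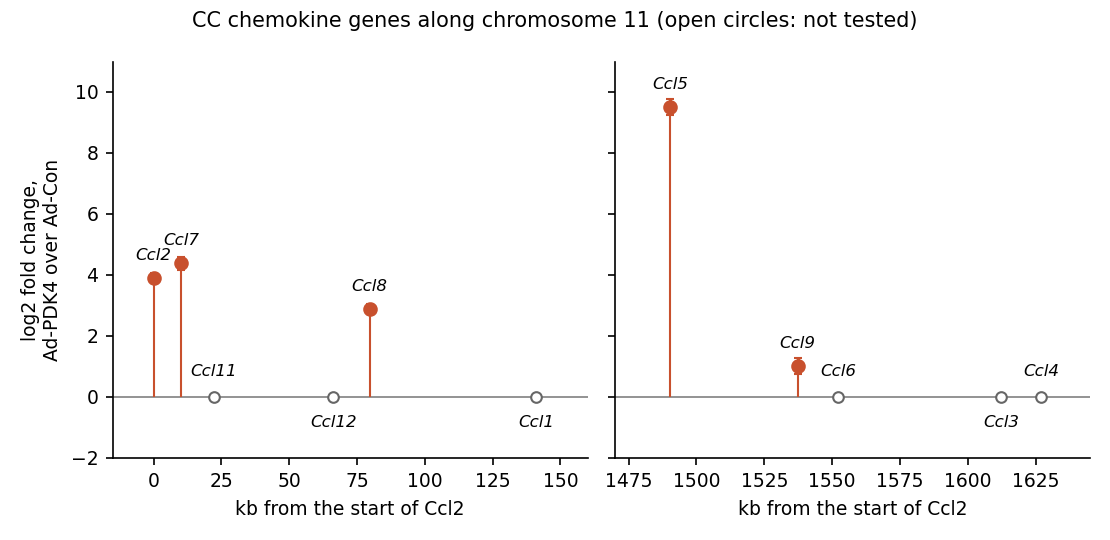
Log2 fold change, Ad-PDK4 over Ad-Con, with SE (n = 3 per group), of CC chemokine genes on chromosome 11 by distance in kb from the start of Ccl2, in 2 panels for the 2 clusters. Open circles on the 0 line mark genes too low to test, which lie between and beside those that rose.

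The stretches upstream of the start site were inspected because NF-kB, AP-1 and interferon-activated factors are known regulators of this family. RefSeq promoter windows (GRCm38.p6) were found for 6 of the 10 genes, Ccl8, Ccl9, Ccl17, Ccl20, Ccl25 and Ccl27a, in 9 windows, and the 250 bases before each start were searched on both strands. The 3 windows below belong to genes called higher with more than 3 reads in every Ad-PDK4 library, Ccl20 only in the fit without a filter. Ccl17, with 2, 1 and 3 reads in Ad-PDK4, also had more reads there, and its window is not printed. The windows of Ccl25 and Ccl27a are not printed either. Ccl25 was higher without overlap in FPKM but was not called, and Ccl27a was called lower. Capitals mark a match to the NF-kB consensus in Ccl20. In Ccl9 they mark first TGANTCA (the AP-1 motif) and then the NF-kB consensus. The windows are written 5′ to 3′ on the strand of the gene and end at the base before the start.
Ccl20: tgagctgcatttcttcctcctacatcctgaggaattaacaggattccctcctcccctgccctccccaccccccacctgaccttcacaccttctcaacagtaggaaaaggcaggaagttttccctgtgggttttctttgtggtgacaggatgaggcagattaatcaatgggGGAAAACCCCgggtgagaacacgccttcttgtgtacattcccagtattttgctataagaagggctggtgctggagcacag
Ccl9: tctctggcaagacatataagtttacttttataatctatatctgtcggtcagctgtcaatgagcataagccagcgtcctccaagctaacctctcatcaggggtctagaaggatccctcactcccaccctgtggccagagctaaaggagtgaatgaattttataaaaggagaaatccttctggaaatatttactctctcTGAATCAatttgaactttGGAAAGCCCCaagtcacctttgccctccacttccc
Ccl8: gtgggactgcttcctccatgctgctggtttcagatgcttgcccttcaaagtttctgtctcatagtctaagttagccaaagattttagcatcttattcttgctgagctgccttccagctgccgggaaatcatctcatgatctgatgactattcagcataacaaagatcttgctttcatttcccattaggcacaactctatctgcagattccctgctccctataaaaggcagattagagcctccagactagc

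These windows are chr1:83116516-83116765 on the plus strand for Ccl20, chr11:83578637-83578886 on the minus strand for Ccl9 and chr11:82114935-82115184 on the plus strand for Ccl8. The NF-kB consensus matched 80 to 71 bases before the start of Ccl20 and 35 to 26 bases before that of Ccl9, and 7.25% of all 32851 RefSeq windows of this length hold a match. TGANTCA occurred 53 to 47 bases before the start of Ccl9 and in 1 of the 3 windows of Ccl27a, against 6.75% of all windows. The interferon-gamma motif TTCNNNGAA occurred in Ccl17 (7.02% of all windows), and the interferon response motif GAAANNGAA in none of the 9 windows (7.13% of all windows). The window of Ccl8 held none of the 4 motifs, nor did either window of Ccl25. A match is a description of letters and does not show binding.

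The rest of the CC family was nearly silent. Of 14 other mouse CC chemokine symbols examined (Ccl1, Ccl3, Ccl4, Ccl6, Ccl12, Ccl19, Ccl21a, Ccl21b, Ccl21c, Ccl22, Ccl24, Ccl26, Ccl27b and Ccl28), 11 had no read in any library and 0 passed the filter. The macrophage chemokine Ccl4 had 0 reads in each Ad-Con library and 2, 0 and 1 in Ad-PDK4. Ccl28 had 0 to 6 reads and Ccl6 0 to 4 in any library.

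Receptors for these ligands were also low. Of 14 CC chemokine receptor and scavenging receptor genes, 5 (Ccr2, Ccr4, Ccr6, Ccr8 and Ackr1) had no read in any library, 11 had at most 3 reads in every library, and 2 passed the filter. Ccrl2, an atypical receptor that binds the attractant chemerin, had 55, 52 and 57 reads in Ad-Con and 185, 158 and 299 in Ad-PDK4. All its Ad-PDK4 libraries stood above the Ad-Con libraries, and its mean went from 1.13 ± 0.0855 FPKM up to 4.20 ± 0.902 (n = 3), with a log2 fold change estimated at 1.79 (SE 0.16, limma adjusted p = 8.06e-05). Ccr10, the receptor of the Ccl27a product, had 23, 21 and 26 reads against 26, 33 and 31 and was not past the threshold (log2 fold change 0.29, SE 0.21, limma adjusted p = 0.31).

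Transcription factors and inhibitors known to act on chemokine genes were mostly higher. Of 24 listed regulators 23 were tested, of which 20 rose (21.8% of all tested genes did), 11 of them by at least 2-fold (3.95% of all tested genes). None fell (20.8% of all tested genes), 3 (Irf3, Jun and Fos) were not past the threshold, and the median log2 fold change was 0.99. Irf7, a factor of the type I interferon response, rose most, by 5.00 (SE 0.10, limma adjusted p = 8.47e-08), from 5.69 ± 0.794 to 184 ± 11.6 FPKM (n = 3). Cebpd, a factor of acute-phase transcription, rose by 2.95 and Stat2, a component of the interferon-activated complex ISGF3, by 2.62 on the log2 scale. The NF-kB subunit Rela changed least among those called, by 0.17 (limma adjusted p = 0.0313).

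Of 18 cytokines and receptors known to induce CC chemokines, 11 were tested, of which 7 rose and 0 fell, where 21.8% and 20.8% of all tested genes did, with a median log2 fold change of 0.36. Il6, an inflammatory cytokine, had 4, 1 and 2 reads in Ad-Con and 114, 89 and 210 in Ad-PDK4, a log2 fold change estimated at 4.28 (SE 0.32, limma adjusted p = 3.73e-05). Its Ad-Con mean was 0.0499 FPKM, so Il6 passed the filter on low values only through its level in Ad-PDK4 (2.86 FPKM), and the size of its log2 fold change depends on the pseudocount. The receptor genes Ifnar2 (1.22) and Il13ra1 (1.07) were next, Ifnar2 being a subunit of the type I interferon receptor. Ifnb1, the interferon-beta gene, had 0 reads in each Ad-Con library and 7, 5 and 5 in Ad-PDK4. Its Ad-PDK4 mean was 1.85 times the level of 3 reads per Ad-Con library, without allowance for counting error in Ad-PDK4. Tnf had at most 2 reads in any library, and Il1b, Ifng and Il17a had 0 in all 6.

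Among 9 factors that control the stability of chemokine mRNA, all tested, 4 rose and 0 fell (21.8% and 20.8% of all tested genes), with a median log2 fold change of 0.23. Zc3h12a, the endonuclease regnase-1, rose by 1.85 (SE 0.15, limma adjusted p = 5.42e-05), and the decay factor Zfp36l1 rose by 0.92. Elavl1 followed at 0.31. Of 10 genes for proteins that hold chemokines at the cell surface or cleave them, 8 were tested, and 1 rose while 5 fell (21.8% and 20.8% of all tested genes), with a median log2 fold change of -0.32. Sdc4, a heparan sulfate proteoglycan, rose by 0.75. Mmp2 (-1.25) and Mmp14 (-0.67), which encode proteases known to trim CC chemokines, and the proteoglycan gene Gpc1 (-0.54) had the largest falls, each with a limma adjusted p below the threshold. Dpp4, a peptidase that clips chemokine N termini, was too low to test, with 17, 17 and 9 reads in Ad-Con and 49, 47 and 73 in Ad-PDK4.

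**Figure D5:**
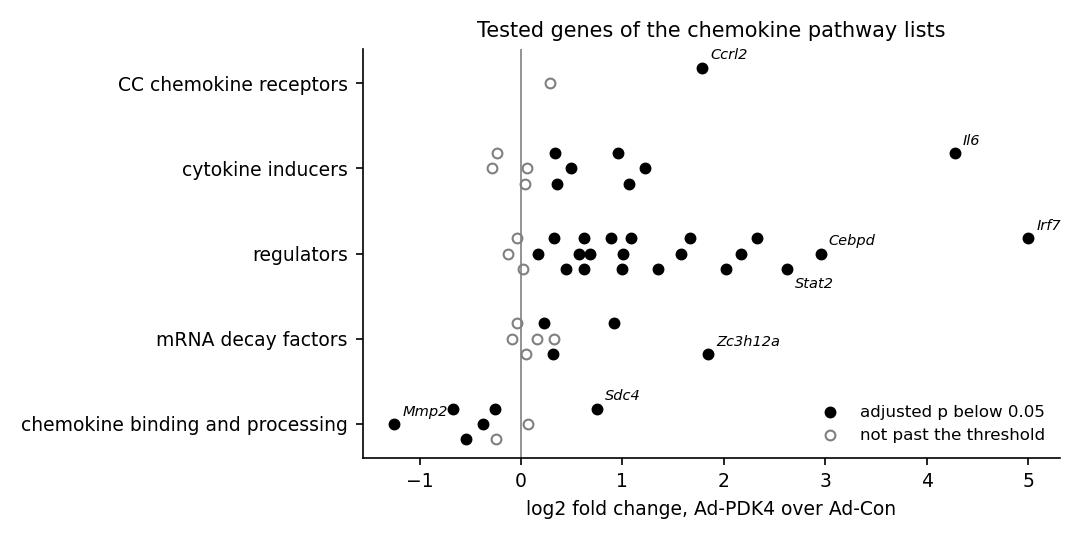
Log2 fold change, Ad-PDK4 over Ad-Con, of the tested genes in 5 lists around the CC chemokines. Each point is 1 gene, filled where the adjusted p was below 0.05, and vertical offsets within a list only separate the points. Most regulators lie to the right of 0 (20 of 23 called higher), while most genes for chemokine binding and processing lie to the left (5 of 8 called lower).

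Genes whose values over the 6 libraries lay nearest to each strongly changed chemokine were found by Euclidean distance of centred log2(FPKM + 0.1), leaving out the CC family. For Ccl2 they were Ifi203-ps (distance 0.287) and Ly6a (0.312), of which Ly6a was at a similar level, with means of 13.3 and 201 FPKM. For Ccl7 they were Phf11a (0.397) and Ifi203 (0.408), and for Ccl8 they were Hsd11b1 (0.280) and Lgi2 (0.308). For Ccl5 the nearest were H2-Q6 (1.37) and Saa3 (1.43), at greater distances than for any other chemokine examined. For Ccl9 they were Rprm (0.184) and Epha2 (0.205). With 2 groups of 3 libraries, such likeness mostly reflects a similar size of the difference between the groups on this scale, pseudocount included. Ifi203-ps, Phf11a, H2-Q6 and Saa3 averaged 0.0349, 0.0140, 0.0405 and 0.0196 FPKM in Ad-Con. They passed the filter on low values only through Ad-PDK4, and the size of their differences depends on the pseudocount.

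CC chemokines are also made by leukocytes, so markers of other cell types were counted. Of all tested genes, 21.8% were called higher and 20.8% lower, and the groups did not overlap for 54.3%. The calls and the lack of overlap given below for single markers are to be read beside these shares. Of 10 macrophage markers, 5 (Ptprc, Tyrobp, Itgam, C1qa and C1qb) had no read in any library and 7 had at most 3 reads in every library. The summed FPKM of this list was 14.97 to 17.9 per library in Ad-Con and 5.92 to 7.44 in Ad-PDK4, most of it from Cd68, which fell by 1.74 on the log2 scale (limma adjusted p = 0.000439). Lyz2, the other tested marker of this list, went the other way, from a mean of 1.51 FPKM in Ad-Con to 1.98 in Ad-PDK4. Its groups did not overlap, but it was not called (limma adjusted p = 0.0791). Csf1r, too low to test, had 11, 23 and 35 reads in Ad-Con and 56, 62 and 61 in Ad-PDK4. Of 4 T cell markers, Cd3d and Cd3e had no read and the summed FPKM was 0 to 0.383 in Ad-Con and 0 to 0.0654 in Ad-PDK4. The 5 endothelial markers summed to 0.582 to 0.737 FPKM in Ad-Con and 0.859 to 1.15 in Ad-PDK4, with Tie1 at 0. Kdr made up most of this sum, with means of 0.536 and 0.919 FPKM. Its groups did not overlap, but it was not called (limma adjusted p = 0.0645). Pecam1, too low to test, had a lower mean in Ad-PDK4 (0.101 and 0.0651 FPKM), with overlap. Cdh5 had 4 reads in Ad-PDK4 replicate 1 and 0 elsewhere, and Tek had at most 3 in any library. The summed FPKM of the 8 smooth muscle markers was 87.8 to 89.4 in Ad-Con and 43.3 to 48.1 in Ad-PDK4. Most of that sum was Acta2, the 1 called gene of the 3 tested, which fell by 1.11 on the log2 scale, while Smtn (0.02) and Lmod1 (-0.29) were not past the threshold. Mylk, too low to test, had 188, 168 and 122 reads in Ad-Con and 27, 28 and 24 in Ad-PDK4. The fit without a filter called Mylk lower (log2 fold change -1.93, limma adjusted p = 0.00197), but not Cnn1, Des, Tagln or Myh11. Of the others too low to test, Cnn1 (72 and 39 reads per group) and Des (39 and 10) were lower without overlap. Tagln (38 and 34) and Myh11 (6 and 19) overlapped between the groups. The 5 fibroblast markers summed to 1247 to 1341 FPKM in Ad-Con and 661 to 734 in Ad-PDK4, most of it from Col1a1. Of these 5, Col1a1 (-1.28), Col3a1 (-0.86) and Lum (-1.16) fell, Dcn rose by 0.83 and Pdgfra (-0.05) was not past the threshold. The part of these differences in the chemokine levels was not tested.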

How the data were processed

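RNA of the 6 libraries was sequenced by the authors, and the deposited table gave FPKM per gene and library, with gene lengths and without pooling. The labels list CASAVA 1.8, fastp, HISAT2 2.0.5, featureCounts 1.5.0-p3 and DESeq2 1.20.0 without roles, and the labels and the study name different library kits. They also name GRCm39, but 54495 gene identifiers were found in GENCODE M21 (GRCm38) and 98.33% of these had the same start and end, so coordinates are on GRCm38. The strand setting of the counting is not given in the sources used here.

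Multiplying FPKM by gene length returned whole multiples of 1 step per library for 100% of non-zero values (tolerance 0.01 reads). These multiples are called reads, and intervals and limits from them cover counting error only. Groups were taken from the treatment labels and replicate numbers from the titles. The 2 groups were compared with limma 3.58.1 (trend and robust, R 4.3.3) on log2(FPKM + 0.1) over genes averaging 0.5 FPKM or more, with Benjamini-Hochberg adjustment. The procedure was tested on simulated reads, with the same spread setting for every gene and changes only in genes with many reads. That test does not cover genes with few reads or a wider spread between libraries. Log2 fold changes carry the pseudocount and ratios of mean FPKM do not. As alternatives the fit was repeated with pseudocounts of 1 and 0.01, no filter, a minimum mean FPKM of 5, TPM, quantile normalization, no trend or robust moderation, a replicate block, limma-voom on the recovered reads, and leaving out each library.

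The 10 chemokines and the lists were chosen with earlier results of these data known. Named genes were the 10 members, Pdk4, tested receptors, the 3 largest rises and falls past the threshold in each other list, and the 2 tested genes nearest to each member called with at least 2-fold change. Other named genes were chosen after their values were seen.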

Additional observations from a re-analysis of the deposited data

How the results depend on the processing

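Ccl2, Ccl5, Ccl7 and Ccl8 were called higher in all 15 alternative settings, with log2 fold changes from 3.72 to 4.00, 8.43 to 9.80, 4.16 to 4.50 and 2.58 to 3.03. No result changed direction in any setting run, but Ccl9 was below 2-fold in some settings, as given above. The number of members called higher was 7 without a filter, since Ccl17 and Ccl20 then entered, 4 at a minimum mean FPKM of 5, which Ccl9 does not reach, and 4 to 5 when single libraries were left out. The number called lower, 1 (Ccl27a), was 0 without a filter and at that minimum, where it was not tested, and 0 to 1 when single libraries were left out. At a minimum mean FPKM of 5, 258 of all genes were called higher and 114 lower by at least 2-fold (530 and 360 at a minimum of 0.5 and a pseudocount of 0.1), with 0 receptors and 2 mRNA decay factors called higher, on fewer genes tested. With a pseudocount of 1, 153 of all genes were called lower by at least 2-fold. Without trend and robust moderation 1 cytokine inducer was called lower, and the cause was not tested. Without a filter 2 genes of chemokine binding and processing were called higher, the added one being Dpp4.

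Replicate numbers were shared between the groups, but the deviations of same-numbered libraries were not correlated above 0.1 (-0.046, -0.031 and -0.001). No pairing by number was seen, but 3 libraries per group cannot show that the libraries were unpaired. With the replicate block 5 members were called higher and 1 lower, as without it.

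With 3 libraries per group, an exact permutation test cannot go below p = 0.1. At this depth the levels of Ccl11 and Ccl17, and the Ad-Con levels of Ccl20, lie at or near the limit of a count of 0. No value was set against a protein measurement.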
